A study of Mus musculus with 8 samples.

Results

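BMAL1 binding near microRNA (miRNA) genes was described in HC11 cells, a clonal mouse mammary epithelial line, from 4 ChIP-seq peak lists. A peak was a member when the curated RefSeq transcription start site closest to its centre (mouse build GRCm38) belonged to a gene whose symbol begins with Mir and a digit or with Mirlet. Members numbered 6882 of 211109 peaks over all lists, namely 207 of 6534 in UNDIFF6, 210 of 5475 in UNDIFF8, 517 of 13683 in DIFF1 and 5948 of 185417 in DIFF2. Nearest here means only the closest annotated start and carries no information on regulation.

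All cultures were wild-type HC11 cells kept for 48 h without epidermal growth factor in 10% serum with 5 µg/mL insulin. The UNDIFF cultures (n = 2) were then taken as undifferentiated cells, and the DIFF cultures (n = 2) received 0.1 µM dexamethasone, 5 µg/mL insulin and 5 µg/mL prolactin for a further 96 h. Each of the 4 ChIP experiments was independent, was crosslinked with 1% formaldehyde and had its own input DNA, which served as the background for peak calling. Only 1 cell line was used, and peak positions cannot show whether the cells expressed mammary markers.

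MicroRNAs are short RNAs cut from hairpins in longer primary transcripts, and bases 2 to 8 of the mature strand, the seed, pair with target mRNAs. Many miRNA genes lie inside the introns of other genes, and the annotated start of a miRNA gene is the start of its hairpin, which can be far from the promoter of the primary transcript. BMAL1 dimerises with CLOCK and binds the E-box CACGTG, and members of this dimer's feedback loop are themselves under miRNA control. In mammary epithelium, miR-148a is known for its abundance in milk and miR-29a for control of DNA methyltransferases.

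The lists differed in ways that bear on every count below. Depth, read from the tag values as the smaller of each ChIP and input library, was between 35.3 and 80.4 M tags, lowest in DIFF2 and highest in UNDIFF6. DIFF2 stood apart, with 185417 peaks of 337 bp against at most 13683 in the other lists, and 86.0% of its non-member peaks had a repeat-masked centre against 21.6 to 26.8% in the other lists. Differentiation state, depth and the size of a list cannot be told apart with 2 cultures per state, so results are given with and without DIFF2 where it carries them. The study describes a smaller number of peaks across its DIFF samples than the deposited DIFF2 list holds alone. Whether that list is the one that the study analysed is not known from the sources used here, and every DIFF2 count rests on it.

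The mature sequences of miRNA genes around which the results turn are shown to identify the products of loci with many peaks and of loci described for a peak near the hairpin or an E-box, and 1013 of the 1190 miRNA genes considered have a mature sequence in RefSeq (GRCm38.p6). Capitals mark the seed, and each sequence runs 5′ to 3′.
miR-6342: cAGCAGCAaucuggucuuugag
miR-6353: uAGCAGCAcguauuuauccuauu
miR-6350: uAGCAGGUgcauuauaaauau
miR-6346: uAGCAGGUgucugcaaugccaa
miR-3964: aUAAGGUAgaaagcacuaaa
miR-592-3p: uCAUCACGuggugacgcaacau
miR-6370: gCAGGAACagcaaaggggaag
miR-7232-5p: uACAUGGAugauuguuuuuccaag
miR-7094-3p: uACUCUGCuguucucuccaca
miR-148a-3p: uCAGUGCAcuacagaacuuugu
miR-29a-3p: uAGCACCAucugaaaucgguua
Mir6388 and Mir3106 had no entry in that table. Of the 37 miRNA genes with a peak in all 4 lists, 29 were matched to 36 mature sequences with 35 different seeds. The seed AGCAGCA was shared by miR-6342 and miR-6353, and ACUCUGC by the copies Mir7094-1 and Mir7094-2. The loci that recurred in all lists were therefore mostly different miRNAs by seed.

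Stretches of 60 bases around E-boxes in member peaks are shown next, because the E-box is the binding motif of the BMAL1 and CLOCK dimer. Capitals mark CACGTG, a palindrome that reads the same on both strands, and sequences are on the forward strand of GRCm38.
Mir6362, UNDIFF6, chr16:22611828-22611887: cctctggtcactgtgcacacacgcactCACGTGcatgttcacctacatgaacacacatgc
Mir6388, UNDIFF8, chr12:115645219-115645278: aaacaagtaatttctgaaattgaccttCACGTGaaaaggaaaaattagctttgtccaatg
Mir3964, UNDIFF8, chr15:29616598-29616657: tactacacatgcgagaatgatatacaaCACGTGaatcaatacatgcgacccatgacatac
Mir7232, UNDIFF8, chr6:81461282-81461341: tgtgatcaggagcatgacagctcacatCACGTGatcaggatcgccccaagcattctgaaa
Mir6346, DIFF1, chr1:118946723-118946782: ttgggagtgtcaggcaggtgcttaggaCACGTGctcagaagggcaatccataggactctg
Mir148a, DIFF1, chr6:51266354-51266413: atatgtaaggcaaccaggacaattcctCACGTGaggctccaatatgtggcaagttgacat
Mir3086, DIFF2, chr19:58909850-58909909: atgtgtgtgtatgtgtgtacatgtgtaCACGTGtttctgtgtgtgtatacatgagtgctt
Mir344i, DIFF2, chr7:62147765-62147824: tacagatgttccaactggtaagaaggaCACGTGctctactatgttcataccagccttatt
The Mir148a window held the E-box at the centre of a DIFF1 peak 3.53 kb downstream of the hairpin start. The other windows came from peaks between 1.8 kb (Mir3086) and 434 kb (Mir7232) from the closest miRNA start.

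Peaks nearest to miRNA genes made up a similar part of every list. The share was 3.17% in UNDIFF6 (95% Wilson interval 2.77 to 3.62), 3.84% in UNDIFF8 (3.36 to 4.38), 3.78% in DIFF1 (3.47 to 4.11) and 3.21% in DIFF2 (3.13 to 3.29). The states overlapped, with a mean of 3.50% ± 0.472 (SD, n = 2) in UNDIFF and 3.49% ± 0.403 (SD, n = 2) in DIFF. The difference of -0.00867 percentage points gave p = 1 in a two-sided exact permutation test, in which 2 against 2 lists cannot go below 0.333. Intervals cover counting error only.

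**Figure D1:**
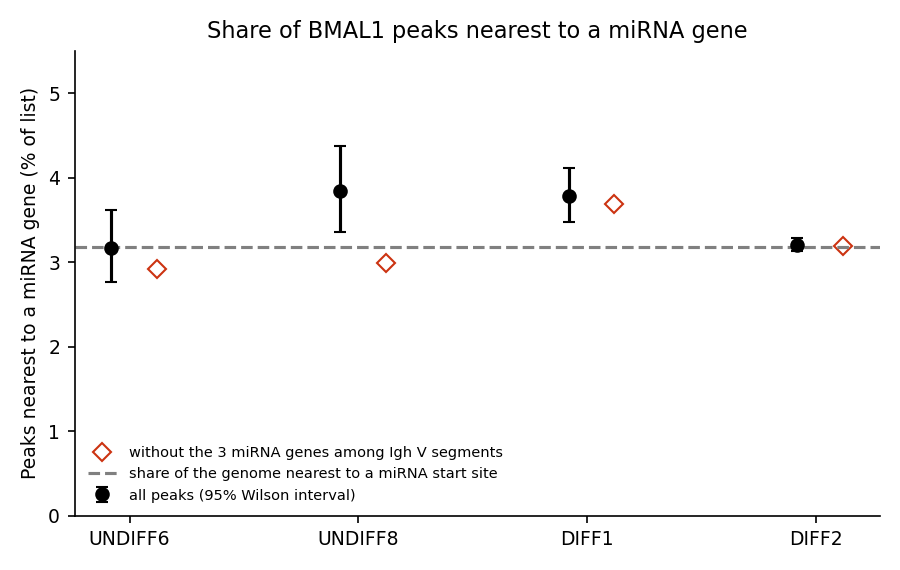
Share of BMAL1 peaks nearest to a miRNA gene in each of the 4 lists (% of the list), with bars for the 95% Wilson interval and a line at the share of the genome nearest to a miRNA start. UNDIFF8 and DIFF1 lie above the line at 3.18%, and UNDIFF6 and DIFF2 lie on it.

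Of the sequence in the genome, 3.18% (84.3 of 2648 Mb) had a miRNA start as its closest curated start, which is the share that evenly spread peaks would have. UNDIFF8 exceeded it by 0.653 points and DIFF1 by 0.596 points. DIFF2 exceeded it by 0.0251 points, and UNDIFF6 was lower, at -0.0147 points. The mean excess was 0.315 points (exact sign-flip test over the 4 lists, two-sided p = 0.25, smallest possible 0.13). When the genome share was weighted by how many peaks each list had on each chromosome, it was 3.34 to 3.45%, and the mean excess was 0.0914 points (exact sign-flip p = 0.75).

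The excess in UNDIFF8 lay in 1 stretch of chromosome 12. Mir6388, Mir7094-1 and Mir7094-2 lie among the V segments of the immunoglobulin heavy chain locus, with 23, 38 and 39 annotated V segments in the sequence nearest to each. Together they had 17 peaks in UNDIFF6, 48 in UNDIFF8, 13 in DIFF1 and 45 in DIFF2. V segments carry no curated transcript start of their own here, so peaks over them were assigned to these miRNAs. Without these 3 genes, which were set apart after their values were seen, the shares were 2.92, 2.99, 3.69 and 3.18% in UNDIFF6, UNDIFF8, DIFF1 and DIFF2, against 3.14% of the genome. Both DIFF lists were then above both UNDIFF lists, by a mean of 0.485 points (exact permutation p = 0.333, the smallest possible). The genes left out held a larger part of the UNDIFF than of the DIFF members, so leaving them out lowers the UNDIFF shares most. A test after this choice cannot show a difference between the states, and none is read from it.

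Of 1190 miRNA genes with a curated start, 727 were nearest to a peak in at least 1 list and 463 to none. The number of genes with a peak was 112 in UNDIFF6, 66 in UNDIFF8, 226 in DIFF1 and 706 in DIFF2, and 455 genes had peaks in DIFF2 alone. The same counts over all genes are not given here, so these are not read as a result about miRNA genes. A peak in all 4 lists was found for 37 miRNA genes (3.11%), beside 4.32% of all 26180 genes. A peak in both DIFF lists and neither UNDIFF list was found for 120 miRNA genes (10.1%), beside 13.0% of all genes. Neither share was above that of genes at large. No miRNA gene had peaks in both UNDIFF lists and neither DIFF list, which was the case for 2 of all 26180 genes.

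The number of lists in which a miRNA gene appeared went with the amount of sequence closest to it. The median was 3.32 kb for genes in no list, 30.3 kb for genes in 1 list, 75.3 kb in 2 lists, 143 kb in 3 lists and 446 kb in all 4. The range for genes in all lists (131 to 1239 kb) overlapped that for genes in none (0.04 to 161 kb) only at its lower end. This is a description, since a gene with more sequence has more room for a peak. Of the 37 genes in all lists, 17 start inside another gene, a smaller part than the 835 of all 1190 miRNA genes (70.2%). The difference was not tested.

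**Figure D2:**
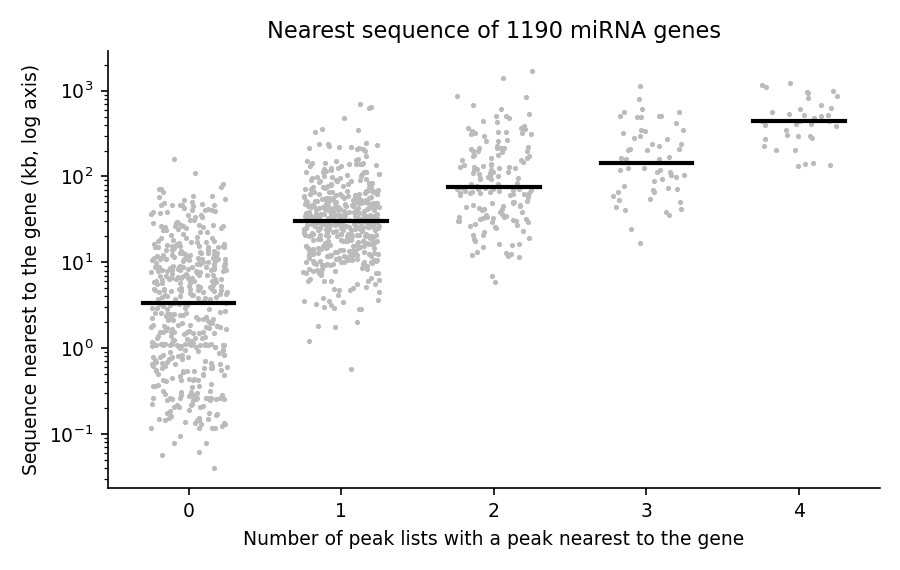
Length of the sequence nearest to each of 1190 miRNA genes (kb, log axis) by the number of lists in which the gene had a peak, with a bar at the median of each column. The median is 3.32 kb for genes in no list and 446 kb for genes in all 4 lists.

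The 8 miRNA genes with the most peaks in UNDIFF6, UNDIFF8 and DIFF1, among those in all lists, were Mir6388, Mir3964, Mir6342, Mir592, Mir3106, Mir6370, Mir6350 and Mir7232. They held 23.7% of the members in UNDIFF6, 48.6% in UNDIFF8, 20.5% in DIFF1 and 15.6% in DIFF2, on 8.85% of the sequence nearest to miRNA genes. As the genes were chosen by these counts, their levels are a description. No function in mammary cells is given here for most of these miRNAs, which are annotated chiefly from small RNA sequencing.

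Mir6388 (chr12:115695720-115695794, minus strand, intergenic) had 8 peaks in UNDIFF6, 36 in UNDIFF8, 3 in DIFF1 and 25 in DIFF2 within 393 kb. Relative to the density of peaks over the whole list, this was 8.26, 44.3, 1.48 and 0.909 times in the same order. The UNDIFF lists were thus high and DIFF2 was below its own average. Relative to the whole of chromosome 12 in each list, these peaks included, the density was 25.9, 122, 3.50 and 1.15 times. Input tags in these peaks were high in UNDIFF6, with a median of 14.5 against 6.5 for members of that list, and above the members in the other lists, at 8.7 against 5.8 in UNDIFF8, 6.0 against 4.0 in DIFF1 and 7.0 against 4.6 in DIFF2. The part of the input in this result was not tested.

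Mir6342 (chr1:29421488-29421612, plus strand, intergenic) had 11 peaks in UNDIFF6, 16 in UNDIFF8, 7 in DIFF1 and 108 in DIFF2 over 679 kb. The densities were 6.56, 11.4, 1.99 and 2.27 times those of the lists, again higher in both UNDIFF lists than in either DIFF list, and 3.69, 6.34, 1.18 and 1.69 times those of chromosome 1. Mir3964 (chr15:29713331-29713404, minus strand, intergenic) had 8, 19, 14 and 126 peaks, at 3.29, 9.33, 2.75 and 1.83 times the density of UNDIFF6, UNDIFF8, DIFF1 and DIFF2. Its UNDIFF8 peaks reached 47.6-fold over input with a median of 7.69, beside 4.30 for all members of that list. The 47.6-fold peak had 0.5 input tags. Median input in the Mir3964 peaks of UNDIFF8 was 3.4 tags, beside 5.8 for all members of that list. Relative to chromosome 15 the densities of Mir3964 were 1.11, 2.64, 1.37 and 1.24 times.

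Mir592 (chr6:27936655-27936750) lies in an intron of Grm8, which encodes a metabotropic glutamate receptor, and had 8, 9, 16 and 148 peaks in UNDIFF6, UNDIFF8, DIFF1 and DIFF2. Its density was between 1.93 and 3.97 times that of the list and between 1.20 and 1.48 times that of chromosome 6. Mir3106 (chr8:16168757-16168838), within Csmd1, had 4, 5, 20 and 104 peaks, the densest in DIFF1 at 3.12 times the list. Relative to chromosome 8 it was at 0.431, 0.601, 1.32 and 0.909 times in UNDIFF6, UNDIFF8, DIFF1 and DIFF2. The sequence closest to the start of these intronic hairpins was 1.10 Mb for Mir592 and 1.24 Mb for Mir3106.

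Mir6370 on chromosome 6 had 6, 4, 15 and 150 peaks in UNDIFF6, UNDIFF8, DIFF1 and DIFF2, and Mir7232 on the same chromosome had 3, 6, 14 and 139. Mir6350 on chromosome 1 had 1, 7, 17 and 127 peaks, and was the only 1 of the 8 below the average density in UNDIFF6 (0.349 times). For these 3 genes the densities in DIFF1 and DIFF2 lay between 1.56 and 3.00 times the list, above the genome average in both DIFF cultures. Relative to their own chromosomes they were at 1.17 to 1.68 times in these lists.

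**Figure D3:**
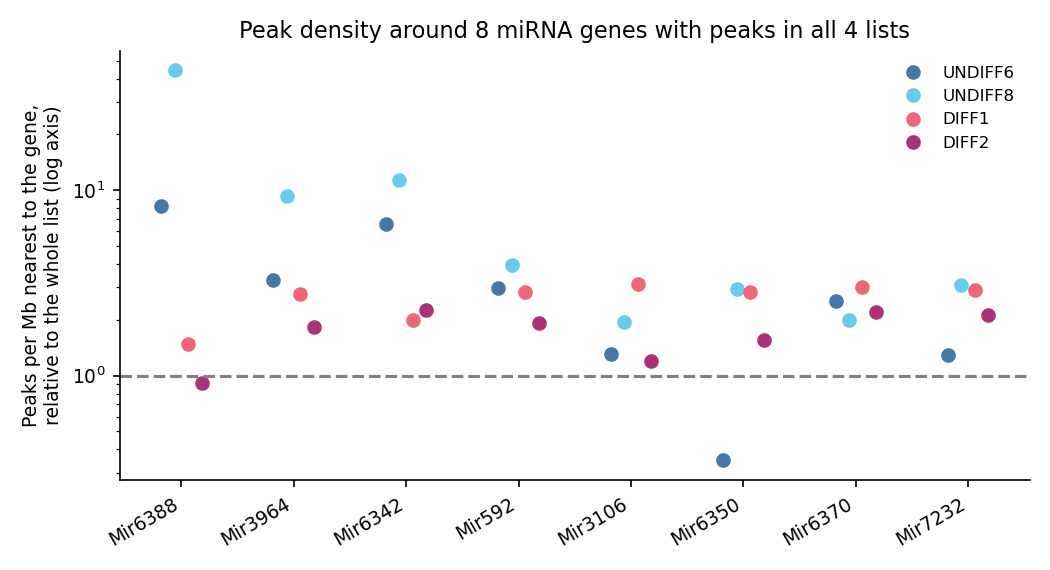
Peaks per Mb nearest to each of 8 miRNA genes, divided by peaks per Mb over the whole genome in the same list (log axis), with 1 point per list and a dashed line at 1. Mir6388 is at 44.3 in UNDIFF8 and 0.909 in DIFF2, while Mir6370 lies between 2.00 and 3.00 in all 4 lists.

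The recurrent genes were unevenly placed among chromosomes. Chromosomes 1, 6, 8 and 15 carried 7 of the 8 genes above and 25 of the 37 in all lists, beside 207 of all 1190 miRNA genes. The same chromosomes had the highest overall peak density in UNDIFF6, at 4.39 to 7.49 peaks per Mb beside 2.47 for the genome. In DIFF1 they had 8.70 to 12.2 peaks per Mb beside 5.17 for the genome. Median input tags in the UNDIFF6 peaks of these chromosomes were 6.5 to 7.0, within the range of 5.25 to 8.0 over the other autosomes and X. In UNDIFF8 they were 5.8 to 6.3, beside 4.3 to 8.2. In the DIFF lists they lay towards the upper end, at 4 to 4.5 beside 3 to 4 in DIFF1 and 5 to 5.6 beside 3.7 to 5.4 in DIFF2. The part of the input in these densities was not tested.

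**Figure D4:**
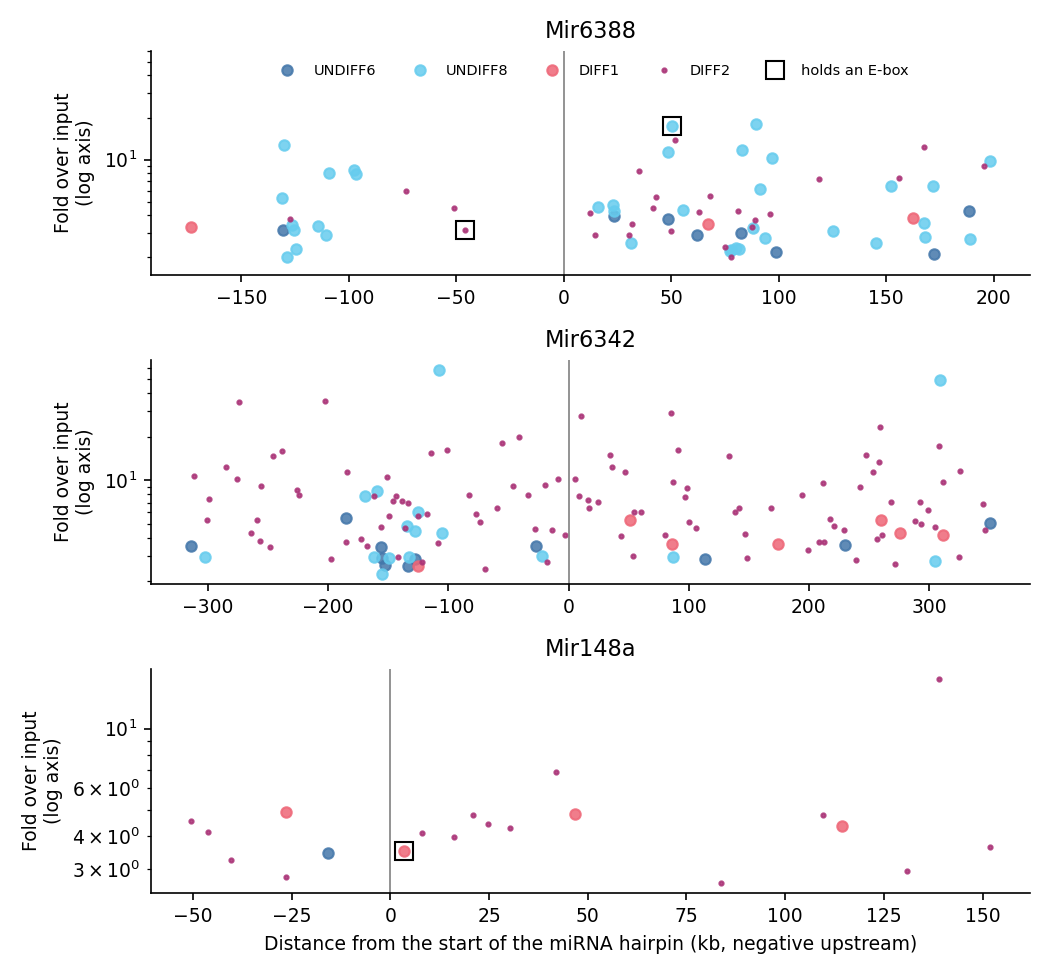
Fold over input (log axis) of every peak nearest to Mir6388, Mir6342 and Mir148a against its distance from the hairpin start (kb, negative upstream), coloured by list, with squares around peaks that hold an E-box. Peaks of UNDIFF8 are spread over the Mir6388 region, peaks of UNDIFF6 and UNDIFF8 gather upstream of Mir6342, and 1 DIFF1 peak of Mir148a with an E-box lies 3.53 kb downstream.

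Sites called in more than 1 list give the nearest thing to a repeat of the measurement. At least 1 bp was shared with a peak of another list by 21 members in UNDIFF6 (10.1%, beside 7.30% of all its peaks), 29 in UNDIFF8 (13.8%, beside 11.1%), 35 in DIFF1 (6.77%, beside 6.32%) and 65 in DIFF2 (1.09%, beside 0.863%). The member share was slightly above that of the list in each of the 4, a difference that was not tested. These 150 peaks formed 75 pairs near 42 genes, and 10 pairs did not involve DIFF2. With DIFF2 left out, 20 members overlapped a peak of another list.

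Shared sites that did not rest on DIFF2, with the strongest site of both DIFF cultures, are printed as the peak of the first list named, and capitals mark the bases common to both peaks.
Mir6388, UNDIFF6, chr12:115672221-115672415: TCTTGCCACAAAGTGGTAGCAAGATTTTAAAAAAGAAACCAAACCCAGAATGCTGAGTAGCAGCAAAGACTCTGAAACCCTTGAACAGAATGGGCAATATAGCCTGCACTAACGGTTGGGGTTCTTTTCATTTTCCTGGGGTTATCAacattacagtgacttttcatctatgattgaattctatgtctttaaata
Mir6342, UNDIFF6, chr1:29293783-29293977: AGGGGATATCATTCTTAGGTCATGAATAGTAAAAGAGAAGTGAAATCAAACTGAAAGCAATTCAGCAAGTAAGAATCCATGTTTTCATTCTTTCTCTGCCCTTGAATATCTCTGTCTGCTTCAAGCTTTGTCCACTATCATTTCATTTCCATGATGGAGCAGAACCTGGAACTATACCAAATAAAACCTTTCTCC
Mir1903, UNDIFF6, chr8:128424000-128424194: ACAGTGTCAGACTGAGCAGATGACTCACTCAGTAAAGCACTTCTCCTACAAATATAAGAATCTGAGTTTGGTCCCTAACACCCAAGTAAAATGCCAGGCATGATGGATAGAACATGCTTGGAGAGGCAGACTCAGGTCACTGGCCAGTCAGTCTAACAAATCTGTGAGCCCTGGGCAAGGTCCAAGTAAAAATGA
Mir7094-2, UNDIFF8, chr12:114571927-114572155: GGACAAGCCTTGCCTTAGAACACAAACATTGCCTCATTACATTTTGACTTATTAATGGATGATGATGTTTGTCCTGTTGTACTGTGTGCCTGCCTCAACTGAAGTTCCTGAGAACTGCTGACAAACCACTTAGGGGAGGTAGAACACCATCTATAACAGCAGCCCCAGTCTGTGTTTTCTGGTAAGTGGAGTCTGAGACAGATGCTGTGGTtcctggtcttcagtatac
Mir1950, DIFF1, chr19:35249110-35249324: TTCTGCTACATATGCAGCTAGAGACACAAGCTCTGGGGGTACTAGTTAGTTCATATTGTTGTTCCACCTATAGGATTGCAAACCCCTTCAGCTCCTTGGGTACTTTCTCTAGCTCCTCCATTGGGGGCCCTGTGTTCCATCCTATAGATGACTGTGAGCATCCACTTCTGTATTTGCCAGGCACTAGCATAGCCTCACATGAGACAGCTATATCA
The first pair is shared by UNDIFF6 and UNDIFF8, the next pair joins an UNDIFF culture with DIFF1, and the last is shared by DIFF1 and DIFF2.

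The UNDIFF cultures shared 6 sites, all near Mir6388 (4 sites) or Mir6342 (2 sites). These were 6 of 207 members in UNDIFF6, beside 95 of all 6534 peaks of that list that overlapped UNDIFF8. At the Mir6388 site printed above, enrichment over input was 3.95-fold in UNDIFF6 and 4.29-fold in UNDIFF8, with 147 bp in common. At the other 3 sites UNDIFF6 had 3.01, 3.16 and 3.78-fold and UNDIFF8 11.8, 12.8 and 11.4-fold. At Mir6342 the printed site, 128 kb upstream, had 2.87-fold in UNDIFF6 and 4.48-fold in UNDIFF8, with repeat-masked centres in both lists. These folds were modest in UNDIFF6 at every shared site.

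Mir1903, on chromosome 8 within Nrp1, which encodes a semaphorin and VEGF co-receptor, had a site 64.9 kb downstream with 2.46-fold in UNDIFF6 and 12.4-fold in DIFF1. Mir28c, in Samd12, had 1 such site with 22 bp in common at 2.75 and 3.04-fold. Mir7094-2 had 2 sites shared by UNDIFF8 and DIFF1, of which the printed one had 3.58 and 3.98-fold. No UNDIFF site outside the immunoglobulin region and these 2 genes was shared with DIFF1. Such sharing was rare at large. DIFF1 was overlapped by 2 of 207 members and 39 of all 6534 peaks in UNDIFF6, and by 2 of 210 members and 50 of all 5475 peaks in UNDIFF8.

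DIFF1 and DIFF2 shared 31 sites near 25 miRNA genes, and 25 of the sites had a repeat-masked centre in DIFF1. The sites were 31 of 517 members in DIFF1, close to the share over all its peaks, where 781 of 13683 overlapped DIFF2. Ranked by the smaller fold, the first 8 lay near Mir1950, Mir8117, Mir7232, Mir3964 (2 sites), Mir7243, Mir3105 and Mir6370. The Mir1950 site had 8.62-fold in DIFF1 and 6.04-fold in DIFF2, and the Mir7232 site had 31.8-fold and 5.60-fold. Both sites had repeat-masked centres in both lists, and the Mir7232 peak had 0.5 input tags in DIFF1. Of these 8, the Mir3105 site was the closest to its hairpin, 3.56 kb upstream in DIFF1, at 5.52 and 4.68-fold, and the peak centres were outside masked repeats in both lists. The others were between 113 and 576 kb from the hairpin.

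UNDIFF8 and DIFF2 shared 21 sites near 11 genes (of 210 members, beside 479 of all 5475 UNDIFF8 peaks). UNDIFF6 and DIFF2 shared 13 near 11 genes (of 207 members, beside 362 of all 6534 UNDIFF6 peaks). At Mir101c, singled out after its values were seen and near the start of the assembled chromosome 9, 3 sites had 2.02 to 2.69-fold in UNDIFF8 with 12.1, 50.7 and 235 input tags, where the members of that list had a median of 5.8. In DIFF2 the same sites had 9.41 to 12.8-fold with 19.5, 32.7 and 227 input tags, beside a median of 4.6. All 3 had repeat-masked centres in both lists, and the part of the high input in them was not tested.

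Some peaks lay on or beside a hairpin. Within 1 kb of the start there were 5 members in UNDIFF6, 2 in UNDIFF8, 11 in DIFF1 and 80 in DIFF2, of which 0, 1, 3 and 75 had a repeat-masked centre. Peaks that touched the hairpin numbered 1 in UNDIFF6, 1 in UNDIFF8, 0 in DIFF1 and 12 in DIFF2. Without the share of all peaks this close to a start, these counts are not read as a result about miRNA genes. The sequences of 2 UNDIFF peaks beside hairpins are given on the forward strand, with capitals for the bases of the Mir7094-2 hairpin that its peak reached.
Mir29a, UNDIFF6, chr6:31062127-31062321: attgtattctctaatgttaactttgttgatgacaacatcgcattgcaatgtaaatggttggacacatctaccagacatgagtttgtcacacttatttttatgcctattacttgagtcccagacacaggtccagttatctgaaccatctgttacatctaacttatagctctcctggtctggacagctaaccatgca
Mir7094-2, UNDIFF8, chr12:114513690-114513918: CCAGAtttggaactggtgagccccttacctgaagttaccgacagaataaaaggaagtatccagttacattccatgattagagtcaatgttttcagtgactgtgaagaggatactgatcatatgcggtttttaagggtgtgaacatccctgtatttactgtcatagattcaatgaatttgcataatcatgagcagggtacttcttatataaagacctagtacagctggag

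In UNDIFF6, the peak 523 bp downstream of the Mir29a start was 2.37-fold over input with a peak caller p of 6.77e-05. It was near the lower end of members in that list, whose folds ran from 2.11 to 47.8. Mir29a encodes miR-29a, known for targeting the DNA methyltransferases Dnmt3a and Dnmt3b. The other UNDIFF6 genes were Mir1946a, where the peak touched the hairpin at 3.82-fold, Mir5116 (3.46-fold), Mir5709 (2.87-fold) and Mir7216 (2.22-fold). In UNDIFF8 they were Mir7094-2, with a peak on the hairpin at 4.23-fold, and Mir344h-1 at 3.49-fold.

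In DIFF1, the strongest peak within 1 kb was 32.5-fold at Mir6961 in an intron of Bin2, with a repeat-masked centre and 0.5 input tags. Mir1928 (7.16-fold), Mir759 (6.49-fold) and Mir346 (6.07-fold) followed. Mir346 lies in an intron of Grid1, which encodes a glutamate receptor subunit, and its peak was 226 bp downstream. Mir486, in Ank1 and known for its part in red cell development, had a peak 881 bp upstream at 3.76-fold. The remaining genes, Mir7034, Mir6896, Mir6949, Mir710, Mir3106 and Mir5106, had 3.25 to 5.52-fold. None of these genes had a peak within 1 kb in an UNDIFF list. As only 5 members in UNDIFF6 and 2 in UNDIFF8 lay that close, this absence is not read as a difference between the states. The share of all peaks within 1 kb of a start is not given here.

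In DIFF2, the highest folds within 1 kb were at Mir181b-1 (74.9-fold, 751 bp downstream) and Mir99a (36.2-fold, 285 bp upstream), with 0.2 and 0.4 input tags. Mir698, Mir6377 and Mir504 followed at 16.1 to 18.1-fold. All 5 of these peaks had repeat-masked centres. The miR-181 family is best known from lymphocyte development and miR-99a as a regulator of mTOR signalling.

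The E-box was found in 5 members in UNDIFF6, 6 in UNDIFF8, 8 in DIFF1 and 175 in DIFF2. These were 2.42, 2.86, 1.55 and 2.94% of the members, beside 2.13, 1.46, 2.01 and 2.65% of all peaks in the lists. Members held it more often than other peaks in 3 lists and less often in DIFF1. The mean difference of 0.392 points gave p = 0.5 in the two-sided exact sign-flip test. Without UNDIFF8 the difference was 0.0384 points.

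In UNDIFF6, the E-box members lay near Mir6362 (5.74-fold, in an intron of Dgkg, 6.49 kb downstream), Mir335 (4.30-fold), Mir6390, Mir5130 and Mir551b (2.39 to 3.60-fold). In UNDIFF8 they lay near Mir6388 (17.3-fold, 1.9 input tags), Mir3964 (16.6-fold, 1.4 input tags), Mir7232 (7.24-fold), Mir6350, Mir6351 and Mir3473f (2.76 to 4.14-fold). Mir3473f starts within Bcl2, which encodes an inhibitor of apoptosis. None of the 6 UNDIFF8 peaks had a repeat-masked centre.

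In DIFF1 the genes were Mir137 (6.89-fold), Mir6346 (6.36-fold, 7.57 kb upstream and in an intron of Gli2, a transcription factor of Hedgehog signalling), Mir3106, Mir6900, Mir8118, Mir6379, Mir148a and Mir6373 (3.38 to 5.41-fold). The highest in DIFF2 were Mir344i and Mir1895 (82.2-fold each), Mir3086 (79.7-fold), Mir876 and Mir6420. Their input tags are not given here. In the same list, the 74.9-fold peak at Mir181b-1 had 0.2 input tags, so folds of this size can rest on very little input. The Mir3086 window printed above holds runs of TG. Of the 175 in DIFF2, 142 were repeat-masked.

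The 194 E-box members lay near 128 genes, and 27 of the 194 were within 10 kb of the start. Of the 194, 3 overlapped a peak of another list, beside 150 of all 6882 members. No gene had an E-box peak in both an UNDIFF list and DIFF1. With 5, 6 and 8 E-box members in UNDIFF6, UNDIFF8 and DIFF1 among 1190 miRNA genes, this absence is not read as a result. The same count over all genes is not given here.

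Among 22 miRNAs known from mammary development, milk or lactation, peaks were found for 3 in UNDIFF6, 0 in UNDIFF8, 5 in DIFF1 and 12 in DIFF2, beside 9.41, 5.55, 19.0 and 59.3% of all miRNA genes. The 3, 0, 10 and 89 peaks of these genes came to 2.55, 0, 8.51 and 75.8 per Mb, beside 2.46, 2.49, 6.14 and 70.6 per Mb around all miRNA genes. A peak in both DIFF lists and neither UNDIFF list was found for 4 of 22, Mir30b, Mir138-2, Mir205 and Mir221, the last 3 named after this count was seen, beside 10.1% of all miRNA genes and 13.0% of all genes. In DIFF1 these 4 genes had 6 peaks together. A DIFF2 peak 523 bp upstream of Mir138-1 (3.15-fold) and the UNDIFF6 peak 523 bp downstream of Mir29a were equally close to their hairpins, and none of the list was closer.

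Mir148a (chr6:51269812-51269910, intergenic), whose miRNA is abundant in milk, had 1 peak in UNDIFF6, 0 in UNDIFF8, 4 in DIFF1 and 15 in DIFF2. The UNDIFF6 peak was 15.8 kb upstream at 3.46-fold. The DIFF1 peaks were 26.5 kb upstream and 3.53, 46.8 and 114 kb downstream, at 4.89, 3.51, 4.80 and 4.34-fold. The upstream DIFF1 peak shared 196 bp with a DIFF2 peak of 2.81-fold, and both centres were repeat-masked. The peak with the E-box did not overlap a peak of another list.

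Mir30b (chr15:68337415-68337510), which disturbs lactation when overexpressed in the mouse mammary gland, had 1 peak in DIFF1 and 7 in DIFF2. A site 36.1 kb downstream was shared by both, with 215 bp in common, at 3.13-fold in DIFF1 and 4.95-fold in DIFF2, with both centres outside masked repeats. Mir221 on the X chromosome, whose product is known from human cells to target the cell cycle inhibitor p27, had 3 peaks in DIFF1 and 37 in DIFF2. Mir205, known from mammary progenitor cells, had 1 and 6, and Mir138-2 had 1 and 2. Mir101a had 1 peak in UNDIFF6, 2.74 kb upstream at 8.79-fold, and 3 in DIFF2.

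Over all miRNA genes, 9.41, 5.55, 19.0 and 59.3% had a peak in UNDIFF6, UNDIFF8, DIFF1 and DIFF2, and the other groups had small counts on little nearest sequence. Of 14 miRNAs linked to the clock, 0 had a peak in UNDIFF6, 1 in UNDIFF8, 1 in DIFF1 and 4 in DIFF2. Their 0.251 Mb had 0, 3.99, 3.99 and 39.9 peaks per Mb, above all miRNA genes in UNDIFF8 and below them in the other lists. Mir182, of the cluster that also holds Mir96 and Mir183, had a peak 4.86 kb downstream in UNDIFF8 (2.54-fold, repeat-masked) and 1 in DIFF1. Mir132 and Mir212, which respond to light in the brain clock and are named here after their values were seen, had no peak in any list, with 2.71 and 1.71 kb of nearest sequence. Mir219a-2, of the same group, had 1 DIFF2 peak 6.54 kb upstream at 16.0-fold.

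Of 12 annotated let-7 family genes, 0 had a peak in UNDIFF6 or UNDIFF8, 1 in DIFF1 (Mirlet7d, 5.26 kb downstream, 4.97-fold) and 4 in DIFF2, the closest at Mirlet7c-1 (2.04 kb downstream, 6.83-fold). The let-7 miRNAs restrain proliferation and mark differentiated cells. Of 5 miR-200 family genes, which maintain the epithelial state, 1 had a peak, in DIFF2. Of 15 genes of the proliferation-linked miR-17-92 cluster and its paralogues, 1 had a peak in DIFF1 (Mir106b, 2.05 kb upstream within Mcm7, 2.61-fold) and 2 in DIFF2. With 0.144 Mb of nearest sequence, the miR-17-92 genes had 0, 0, 6.92 and 83.1 peaks per Mb in UNDIFF6, UNDIFF8, DIFF1 and DIFF2. The DIFF1 value rests on 1 peak. The let-7 genes had 0, 0, 2.56 and 46.1 per Mb, beside 2.46, 2.49, 6.14 and 70.6 for all miRNA genes.

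The same count was made for miRNAs typical of other tissues. Of 13 neuronal miRNAs, 2 had a peak in UNDIFF6, 0 in UNDIFF8, 3 in DIFF1 and 7 in DIFF2, and of 9 muscle miRNAs 1, 0, 0 and 5. In UNDIFF6, UNDIFF8, DIFF1 and DIFF2 the densities were 1.59, 0, 3.98 and 65.2 peaks per Mb for the neuronal list. They were 3.29, 0, 0 and 62.5 for the muscle list, beside 2.46, 2.49, 6.14 and 70.6 for all miRNA genes. The muscle value in UNDIFF6 rests on 1 peak.

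Large hairpin clusters had few peaks outside DIFF2, on little sequence. The 203 genes in clusters of 5 or more, linked at up to 50 kb, had 1 peak in UNDIFF6, 2 in UNDIFF8, 7 in DIFF1 and 148 in DIFF2, on 1.92 Mb closest to them. The 71 genes of the cluster in Sfmbt2, from Mir466m to Mir669h, had 0, 0, 1 and 20 peaks over 425 kb. Of the 81 genes of the miR-466, miR-467, miR-669 and miR-297 families, 71 had no peak in any list. Per Mb the large clusters had 0.522, 1.04, 3.66 and 77.3 peaks, beside 2.27, 2.44, 6.15 and 69.9 around single hairpins, so that they were less dense in 3 lists and denser in DIFF2.

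Members were compared with all other peaks of the same list on features that the choice of members did not use, apart from distance, which depends on the spacing of the starts. A repeat-masked centre was found in 15.0% of members and 21.6% of other peaks in UNDIFF6, 22.4 and 26.5% in UNDIFF8, 23.0 and 26.8% in DIFF1, and 85.9 and 86.0% in DIFF2. Members were lower in all 4 lists, by a mean of 3.65 points (a difference of -3.65, exact sign-flip p = 0.13, the smallest possible). The sequence nearest to miRNA starts is itself less masked, as it was 3.18% of the genome but 3.43% of its unmasked bases. Whether the peaks differ beyond this was not tested.

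Peak strength was alike. Median fold over input was 3.48 in members and 3.38 in other peaks of UNDIFF6, 4.30 and 4.14 in UNDIFF8, 4.31 and 4.31 in DIFF1, and 5.26 and 5.15 in DIFF2. On the log2 scale, the mean difference between medians was 0.03 (exact sign-flip p = 0.25). Median input tags were 6.5 and 7.0, 5.8 and 6.3, 4.0 and 4.0, and 4.6 and 4.8 in the same order.

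Members lay farther from the start that they were assigned to. The share within 10 kb was 14.0% of members and 14.9% of other peaks in UNDIFF6, 9.05 and 12.5% in UNDIFF8, 15.1 and 16.0% in DIFF1, and 13.6 and 16.5% in DIFF2. It was lower in members in every list (mean difference -2.05 points, exact sign-flip p = 0.13, the smallest possible). Peaks were assigned by distance, and this share depends on the spacing of annotated starts. The same share over the genome is not given here, so the test cannot show a trait of the peaks. Median distance was 82.7 kb in members and 62.9 kb in other peaks of UNDIFF6, 120 and 77.5 kb in UNDIFF8, 67.9 and 55.5 kb in DIFF1, and 85.8 and 53.7 kb in DIFF2. Between 37.7 and 40.5% of members lay upstream of the start, beside 43.5 to 46.1% of other peaks. The upstream share depends on where the starts lie as well, and is not read as a result.

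**Figure D5:**
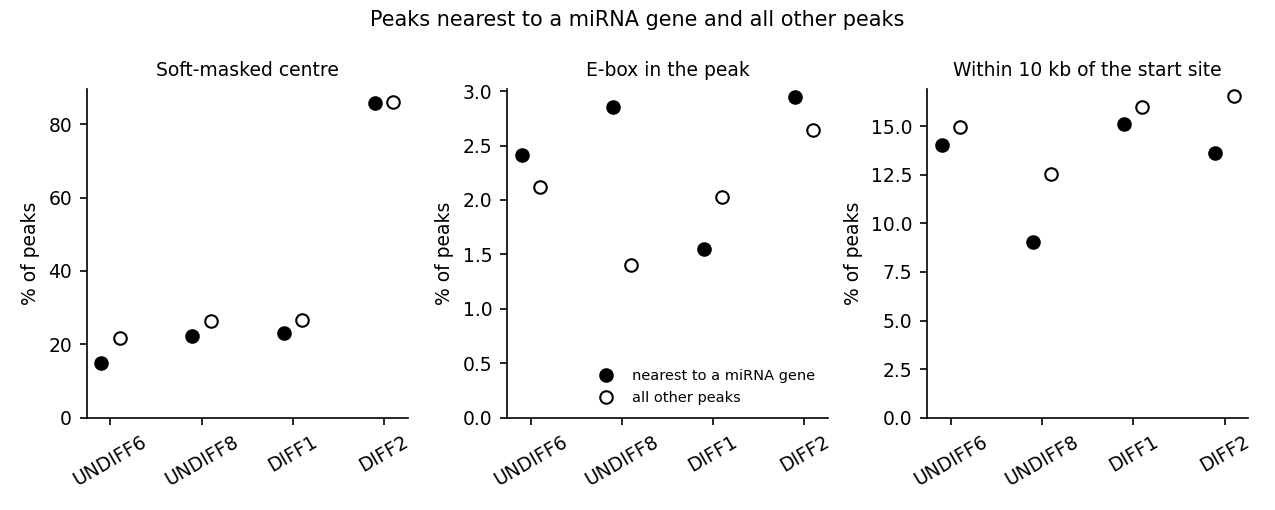
Percentage of peaks with a repeat-masked (soft-masked) centre, with an E-box and within 10 kb of the nearest start in each list, for peaks nearest to a miRNA gene (filled) and all other peaks (open). Members lie below other peaks in every list in the first and the last panel, and above them in 3 of 4 lists for the E-box.

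Most members were intergenic or intronic. In UNDIFF6 there were 124 intergenic, 78 intronic and 5 exonic members, and in UNDIFF8 152, 57 and 1. In DIFF1 there were 288, 219 and 10, and in DIFF2 3683, 2241 and 24. Without the 3 genes of the immunoglobulin region the comparisons of this kind kept their direction, with mean differences of -3.23 points for masked centres and -1.55 points for distance.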

How the data were processed

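Per the submitters' processing notes and the study's methods, the authors used FastQC 0.11.7 for read quality, trimming, Bowtie2 2.2.9 for alignment to GRCm38, and called peaks per culture against its own input with HOMER 4.10 (at least 2-fold over input, local tags and clonal tags, FDR 0.01), without pooling. For DIFF2 they used 1 of 5 equal parts of the reads. The deposited lists give tag signal in ChIP and input, fold ratio over input, an unadjusted p-value, a peak score and a focus ratio, which is a fraction and was not used. A fold sets tags scaled to the smaller library against each other, so folds and input tags are compared only within a list. Input libraries entered only through the peak lists. All value columns belonged to a sample (0 did not).

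Positions were read as 1-based with both ends included, and 0 peaks passed a chromosome end. Each peak centre was assigned to the nearest start of 45756 curated RefSeq transcripts (GRCm38.p6). Repeat masking is the soft-masking of that genome. Peaks overlapped when they shared at least 1 bp. DIFF and UNDIFF shares were compared by a two-sided exact permutation test over lists, and members with other peaks by an exact sign-flip test over the 4 lists. Intervals are 95% Wilson intervals. On simulated data, 0 of 300 nearest starts were wrong and 181 overlaps matched bedtools 2.31.1. Calculations ran in Python (version 3.11.15) with pandas (2.3.3), numpy (2.4.6) and scipy (1.17.1), and plots were drawn with matplotlib (3.10.9).

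Members and miRNA lists were chosen with earlier results of these data known. Genes named were up to 8 with peaks in all 4 lists ranked by peaks in UNDIFF6, UNDIFF8 and DIFF1; those at shared sites; those with a peak on the hairpin or within 1 kb; up to 4 per miRNA list by distance; and those nearest to E-box peaks. For DIFF2 only the highest few by fold were named (up to 5 within 1 kb and with an E-box, and up to 8 sites shared with DIFF1). Exceptions are stated. Alternatives were another transcript set, at least 4-fold peaks, unmasked peaks, equal list sizes, peaks within 100 kb, peak edges, other overlap and motif settings, and leaving out each culture. The immunoglobulin region and the weighting by chromosome were added after the data were seen.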

Additional observations from a re-analysis of the deposited data

How the results depend on the processing

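Each of 9 results was recomputed, giving 101 alternative values, of which 6 reversed, 17 counts moved by over 1.5 times, and 78 kept their direction, and for counts stayed within 1.5 times. Several of these shrank or grew in size. The E-box difference was 0.0384 points without UNDIFF8 and 0.0430 with predicted transcripts, the mean excess over the genome 0.0568 points without the immunoglobulin region genes, 0.0693 within 100 kb and 0.126 with predicted transcripts, and the difference in share within 10 kb -0.730 points with predicted transcripts. No test passed its threshold in any of them, as 4 lists cannot reach it. The DIFF minus UNDIFF difference in share was -0.130 points with predicted transcripts and -0.135 at 4-fold, became 0.0747 points within 100 kb and 0.485 points without the immunoglobulin region genes, and ranged from -0.342 to 0.325 points with 1 culture left out (0.325 without UNDIFF8 and 0.277 without DIFF2). Genes in all 4 lists fell to 17 with predicted transcripts, 18 at 4-fold, 20 with equal list sizes and 19 within 100 kb, and genes in all remaining lists ranged from 37 to 73 with 1 culture left out (56 without UNDIFF6, 73 without UNDIFF8). Genes in both DIFF lists only numbered 72 without masked peaks and 9 with equal list sizes, and ranged from 134 to 575 with 1 culture left out (575 without DIFF1). Overlapping members numbered 76 with predicted transcripts, 42 at 4-fold, 26 without masked peaks, 36 with equal list sizes and 68 within 100 kb, and ranged from 20 (without DIFF2) to 108 with 1 culture left out (92 without UNDIFF8, 80 without DIFF1). The E-box difference was -0.397 points with equal list sizes, and the log2 difference in median fold was -0.00754 with predicted transcripts. Predicted transcripts, higher folds, unmasked peaks, equal sizes and 100 kb each leave fewer members to count. The cause of the other changes was not tested. No paired analysis was possible because the UNDIFF and DIFF cultures share no replicate numbers. Masked centres could not be compared among unmasked peaks, nor the share within 10 kb among peaks within 100 kb. Depth, list size and state cannot be told apart, and a peak absent from a list may lie below its calling threshold.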
